A study of Arabidopsis thaliana with 6 samples.

Results

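Translation initiation factors and elongation factors were examined in imbibed seeds of Arabidopsis thaliana, in the mutant anac089-2 and in the wild type. The factors are the 99 probe sets, of 22746 tested, whose title in the authors' deposited table contains "translation initiation factor" or "elongation factor". Of these, 69 carry initiation titles and 30 carry elongation titles. The wording takes in 7 titles of transcription elongation factors and 3 of rubber elongation factors, none of which names a step of translation. They are kept apart below, which leaves 89 translation factor probe sets, 69 for initiation and 20 for elongation.

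Both groups had the accession Columbia-0 (Col-0) as background. Seeds of each genotype were held in water for 3 days at 4 °C in darkness. They were then moved to light at 22 °C for 3 h together with 5 µM of the plant hormone abscisic acid (ABA), so that the wild-type controls carried the same treatment. Each genotype had 3 biological replicates, each hybridised to an ATH1 array (Affymetrix). The labels describe the mutant only as anac089-2, and no seeds without ABA were among the samples, so the comparison is of genotypes under ABA and not of a response to it. ANAC089 is a NAC transcription factor. None of the names given for the probe sets leads to its gene, so its own level was not analysed here.

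Initiation factors bring the initiator tRNA, the messenger RNA and the small ribosomal subunit together at a start codon. Elongation factors then deliver each further aminoacyl-tRNA and move the ribosome along the message. Plant cells run this machinery in the cytosol with eukaryotic-type factors (eIF, eEF) and in plastids and mitochondria with bacterial-type factors (IF, EF-Tu, EF-Ts, EF-G). Dry seeds store both ribosomes and messages, and translation of stored messages is known to be needed for germination.

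Array medians lay between 3.97 and 4.01 on the log2 scale on 5 arrays and at 3.80 on wild-type replicate 3, whose mean correlation with its own group, 0.982, was the lowest of the 6. Seed markers were high, with mean levels from 9.03 (SESA2) to 13.99 (EM6), and the endosperm markers FIS2, FWA and AGL62 were between 2.58 and 2.88. The seed coat markers GL2 and BAN had mean levels of 5.76 and 3.11. How much endosperm or seed coat the samples held was not tested. Of 7 measured markers of mature seed and embryo, the storage albumin genes SESA1, SESA2 and SESA4 and the LEA gene EM1 were lower in anac089-2 (limma adjusted p from 0.0117 to 0.0341). Of 3 measured markers of leaf or seedling tissue, RBCS1A, the small subunit of Rubisco, was higher (mean 9.75 against 8.90, limma adjusted p = 0.0483), while LHCB5 and PSBO2 stayed under 4 in both groups. The part of these shifts in the results below was not tested. In RNA from whole seeds, fewer cells of a type and less RNA per cell cannot be told apart.

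Most translation factor messages did not differ between the genotypes by the test, and 4 of the 8 that did were cytosolic elongation factors. Of the 4 probe sets for subunits of the eEF1B complex 3 rose in anac089-2, and elongation factor 2 rose as well. Among initiation factors, the eIF3 subunit gene TIF3F1 and AT1G73180 rose and the SUI1 gene AT5G54940 fell. In all, 7 of the 99 probe sets were higher and 1 was lower at a limma adjusted p under 0.05 over all probe sets. Over all probe sets tested, 2.94% were higher and 1.98% lower. The factors were brighter than most of the array. Of the 69 factor probe sets with a mean level of at least 6, 6 were higher and 1 was lower. At such levels 6.9% of all probe sets were higher and 5.7% lower. All 8 called probe sets were among the translation factors. The groups did not overlap for 34 of the 99 probe sets in the higher direction and 8 in the lower one, against 15.8% and 8.23% of all probe sets. The median level was 7.40 for the 99 and 3.96 for all probe sets. Such separation was not counted at like levels.

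**Figure D1:**
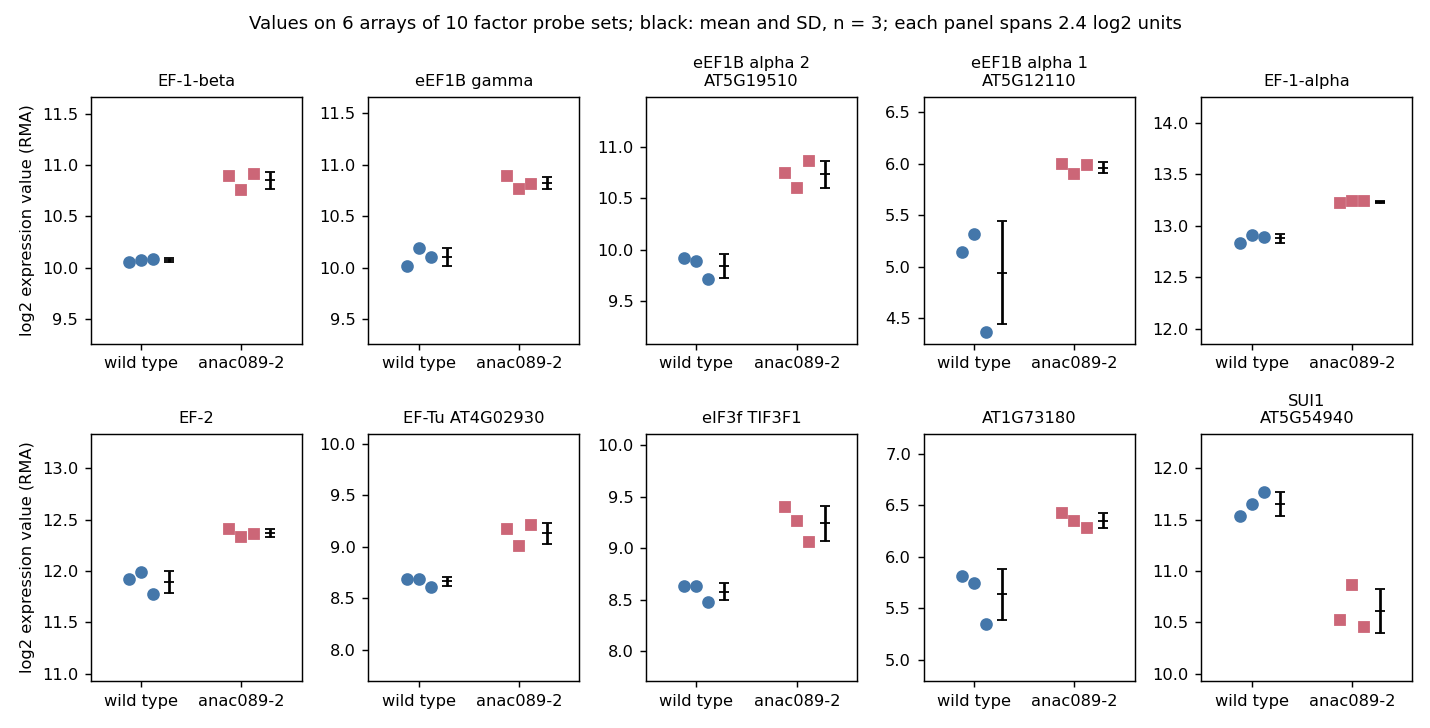
Log2 expression values (vertical axis) of 10 translation factor probe sets on each of the 6 arrays, blue circles for wild type and red squares for anac089-2, with the mean and SD of each group (n = 3) in black. The panels are the 8 called probe sets with AT5G12110 and EF-1-alpha, so they were picked by their results and do not stand for the other factors. In 9 panels the 3 mutant arrays lie above the 3 wild-type arrays, and for AT5G54940 they lie below; the wild-type replicates are drawn from 1 to 3 from left to right, and replicate 3 is the lowest for AT5G12110 at 4.37.

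The eEF1B complex reloads eEF1A with GTP after each tRNA delivery. It is built from exchange subunits, named alpha and beta in plants, and a structural gamma subunit. The probe set titled elongation factor 1-beta (265816_s_at) read 10.06, 10.08 and 10.09 in wild type and 10.89, 10.76 and 10.91 in anac089-2. The wild-type arrays lay within a few hundredths of each other and clear of the mutant arrays. The difference was 0.78 ± 0.092 (SE, n = 3 per group) on the log2 scale, or 1.71-fold (limma adjusted p = 0.0117).

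The gamma subunit probe set (264670_s_at), which the platform table assigns to AT1G57720 and AT1G09640 together, gave a similar picture. It read 10.02, 10.19 and 10.10 in wild type and 10.89, 10.77 and 10.81 in anac089-2, again with no overlap. The difference was 0.72 ± 0.096 (SE, 1.65-fold, limma adjusted p = 0.0136).

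AT5G19510, titled eEF1B alpha-subunit 2, read 9.92, 9.89 and 9.71 in wild type and 10.74, 10.60 and 10.86 in the mutant, a rise of 0.89 ± 0.113 (SE, 1.86-fold, limma adjusted p = 0.0120). Its paralogue AT5G12110, alpha-subunit 1, was much dimmer. It read 5.14, 5.32 and 4.37 in wild type and 6.00, 5.90 and 5.99 in anac089-2. All mutant arrays were above all wild-type arrays, but the low value of wild-type replicate 3 widened the spread. The difference of 1.02 ± 0.234 (SE) missed the threshold (limma adjusted p = 0.0550). Without that array it was smaller, 0.73, but passed (limma adjusted p = 0.0142), in a fit that called 4.0% of all probe sets higher. With any other array left out it did not pass (limma adjusted p from 0.0673 to 0.225). Of the 4 eEF1B probe sets, 3 rose, and all 4 passed under median centring, a second quantile normalization, cyclic loess, array weights and an intensity trend. With a replicate block 2 of the 4 passed. The gamma subunit (limma adjusted p = 0.0517) and AT5G12110 (limma adjusted p = 0.0732) then did not. Both _s_at probe sets of the complex match more than one gene, so they do not say which copy changed.

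eEF1A is the GTPase that carries aminoacyl-tRNA to the ribosome and is among the most abundant proteins of plant cells. One probe set (247644_s_at) stands for the genes AT1G07940, AT1G07930, AT1G07920 and AT5G60390 together. With a mean of 13.1 over the 6 arrays it had the highest level of the 99 probe sets. It read 12.83, 12.91 and 12.89 in wild type and 13.22, 13.24 and 13.24 in the mutant. The groups did not overlap, yet the difference of 0.36 ± 0.087 (SE) did not pass the test (limma adjusted p = 0.0655). AT5G10630, also titled EF-1-alpha, had 0.08 ± 0.108 (SE), with overlapping groups.

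Elongation factor 2 drives translocation of the ribosome. Its probe set (262064_at) read 11.92, 11.99 and 11.78 in wild type and 12.41, 12.33 and 12.36 in anac089-2. The mutant arrays were all higher and lay close together. The rise was 0.47 ± 0.098 (SE, 1.39-fold, limma adjusted p = 0.0424), close to the threshold, and centring each array on its median ended this call.

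In total 4 of the 7 cytosolic elongation probe sets rose, none fell, and their median difference was 0.72. The 4 that rose had mean levels above 10, where 15.0% of the 615 probe sets of the array were higher and 10.9% lower. Among all probe sets with a mean level of at least 6, 6.9% were higher and 5.7% lower. Of the 17 translation elongation probe sets at such levels 5 rose, and of the 48 initiation probe sets 1 rose.

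Of the 69 initiation probe sets 2 rose, 1 fell and 66 did not pass. The share higher was 2.90%, beside 2.94% of all probe sets, which were mostly dimmer. At mean levels of at least 6, 1 of 48 initiation probe sets rose and 1 fell. Of all probe sets at such levels 6.9% rose and 5.7% fell. Their median difference was 0.07, against 0.04 over all 22746 probe sets, and it was -0.02 after centring each array on its median. For the 20 translation elongation probe sets the median was 0.36, and 5 rose and none fell. Of the 20 values 19 were positive, and 16 under cyclic loess. Over all 22746 probe sets 12975 values were positive, and 11171 under cyclic loess. With the transcription and rubber titles counted in, as the title wording has it, the elongation median was 0.29 and the initiation median stood 0.23 below it. Taken on each array, the median level of initiation titles minus that of these elongation titles was 0.985, 1.06 and 0.82 in wild type. In anac089-2 it was 0.73, 0.955 and 0.81, overlapping the wild type. This is a difference of levels and not of log2 differences, and its SD between arrays of a group was 0.118. These medians are descriptions, since the factors were chosen with earlier results of these data known.

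**Figure D2:**
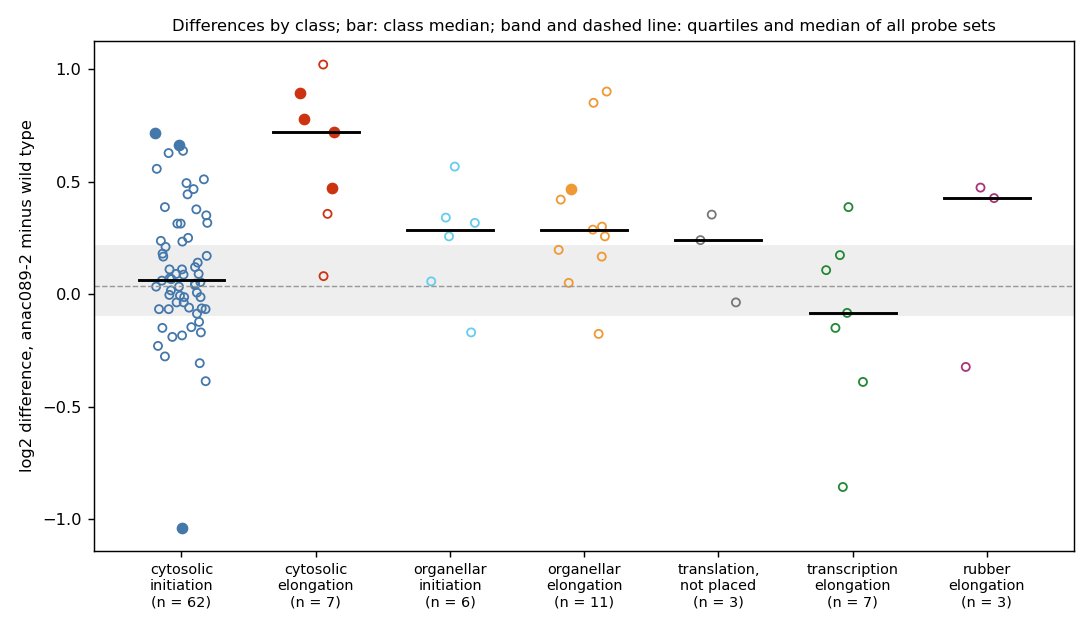
Log2 difference of anac089-2 minus wild type (vertical axis) for each of the 99 probe sets, by class; filled points passed the limma test at an adjusted p under 0.05, black bars are class medians, and the grey band and dashed line are the quartiles and the median (0.04) of all probe sets. The cytosolic elongation median (0.72) lies above the grey band, and that of cytosolic initiation (0.06) lies within it.

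eIF3 is the largest initiation complex and acts as a scaffold on the small subunit. It had 13 probe sets, of which 1 rose and 12 did not pass. Values were positive for 12 of the 13, also under median centring, quantile normalization and cyclic loess. Over all 22746 probe sets 12975 values were positive, and 9127 under median centring. The median of the eIF3 values was 0.25, and 0.16 under median centring. TIF3F1, the gene of subunit eIF3f, read 8.63, 8.63 and 8.48 in wild type and 9.40, 9.27 and 9.06 in anac089-2. Its groups were clear of each other, and the rise was 0.66 ± 0.119 (SE, 1.58-fold, limma adjusted p = 0.0265).

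TIF3I1 (eIF3i) came next, with 9.09, 9.22 and 9.11 in wild type and 9.88, 9.48 and 9.97 in the mutant, a difference of 0.64 ± 0.144 (SE, limma adjusted p = 0.0534). TIF3E1 (eIF3e) had 0.56 ± 0.142 (SE, limma adjusted p = 0.0744). TIF3H1 (eIF3h), the subunit known in Arabidopsis for reinitiation after upstream open reading frames, had 0.44 ± 0.115 (SE, limma adjusted p = 0.0780). In each of these 3 the mutant arrays lay above all wild-type arrays, without passing the test. Without wild-type replicate 3, TIF3E1 passed (limma adjusted p = 0.0457), in a fit that called 4.0% of all probe sets higher.

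Other subunits gave smaller values. TIF3A1 (eIF3a) had 0.17 ± 0.146 (SE), TIF3C1 (eIF3c) 0.17 ± 0.113 (SE), and the eIF3b probe set (246865_s_at) 0.23 ± 0.112 (SE). The eIF3d probe sets had 0.11 (AT4G20980) and 0.25 (AT5G44320), and the eIF3g probe sets 0.24 (259238_at) and 0.51 (250758_at). The second eIF3c probe set (256830_at) was at the dim end of the array, with a mean of 3.11 in wild type and 3.08 in the mutant. No test compared subunits with each other.

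SUI1 is the yeast name of eIF1, the small factor that guards start codon selection, and 6 probe sets carry it. AT5G54940 read 11.53, 11.65 and 11.77 in wild type and 10.52, 10.86 and 10.46 in anac089-2. It was the brightest of the SUI1 probe sets in wild type, and every mutant array lay below every wild-type array. It fell by 1.04 on the log2 scale (SE 0.136), a 2.05-fold decrease, with a limma adjusted p = 0.0129.

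The other SUI1 probe sets did not follow it by the test. AT4G27130 read 10.88, 10.84 and 10.92 in wild type and 11.11, 11.14 and 11.33 in the mutant, a difference of 0.31 ± 0.101 (SE) in the opposite direction (limma adjusted p = 0.142). AT1G54290 had -0.39 ± 0.114 (SE, limma adjusted p = 0.113), and its groups did not overlap either. Another SUI1 copy (248126_at) had -0.15, and AT5G11900 and AT1G71350, titled SUI1 family proteins, had -0.07 and 0.07. Whether AT5G54940 differs from its paralogues in the size of the change was not tested.

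AT1G73180, titled only as related to an initiation factor, read 5.81, 5.75 and 5.35 in wild type and 6.43, 6.35 and 6.28 in the mutant. The mutant arrays were all higher, and the rise was 0.72 ± 0.141 (SE, 1.64-fold, limma adjusted p = 0.0343). The other 4 probe sets with such a general title did not pass, and of these AT1G11480, with -0.17 ± 0.087 (SE), was the one above level 4.

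None of the factors that choose the message and the initiator tRNA passed the test. eIF2 delivers the initiator tRNA, and its 7 subunit probe sets had values between -0.19 and 0.21, none past the threshold. Of these 7, 3 had a mean level under 4, where few probe sets of the array were called. The bright eIF2-gamma probe set (264327_at) had 0.06 ± 0.105 (SE), with a 95% interval from -0.19 to 0.31. The eIF2-beta probe set 246192_at had 0.09 ± 0.111 (SE), with an interval from -0.17 to 0.35. eIF2B exchanges the nucleotide on eIF2. Its 7 probe sets had values between -0.07 and 0.47 and a median of 0.31, which was 0.05 without wild-type replicate 3, where all 7 had their lowest value of the 6 arrays.

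For eIF4E, which binds the cap of the message, EIF4E1 had -0.18 ± 0.097 (SE, interval -0.41 to 0.04) and EIF4E2 0.12 ± 0.092 (SE, interval -0.10 to 0.34). The helicase eIF4A had 5 probe sets. EIF4A-2 read 10.70, 10.77 and 10.62 in wild type and 10.76, 10.76 and 10.73 in anac089-2, with 0.05 ± 0.091 (SE, interval -0.16 to 0.27). The probe set titled eIF-4A-1 (258210_at) read 10.44, 10.74 and 10.23 in wild type and 11.04, 11.01 and 10.84 in the mutant, with 0.49 ± 0.147 (SE, limma adjusted p = 0.114). AT1G51380, also titled eIF4A, was dimmer and had 0.63 ± 0.198 (SE, limma adjusted p = 0.135), or 0.41 without wild-type replicate 3. The groups of eIF-4A-1 were apart, those of EIF4A-2 overlapped, and neither passed. The eIF4F component (247839_at) and eIF4B probe sets also stayed short of the threshold, with 0.09 ± 0.106 (SE) for the first and -0.31 ± 0.137 (SE) for 256868_at, the brighter of 2 eIF4B probe sets.

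eIF1A helps the small subunit scan the message. Its genes AT2G04520 and AT5G35680 had -0.12 (95% interval -0.37 to 0.12) and -0.04 (interval -0.32 to 0.25), with overlapping groups. The eIF5 genes, whose product triggers GTP hydrolysis on eIF2, had -0.15 ± 0.115 (SE) for AT1G77840 and 0.01 ± 0.119 (SE) for AT1G36730. The bright eIF6 probe set (251776_at), an anti-association factor of the large subunit, had -0.07 ± 0.089 (SE). For 37 of the 69 initiation probe sets and 6 of the 20 translation elongation probe sets the 95% interval of the difference lay within 0.5 log2 units of 0 on both sides.

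eIF5A carries an initiation name, but it is known to act during elongation, where its hypusine residue helps the ribosome through difficult peptide bonds. The brightest of its 3 probe sets (261270_at) read 11.94, 11.92 and 11.95 in wild type and 12.45, 12.26 and 12.26 in anac089-2. The wild-type arrays were nearly equal and the mutant arrays all higher, with a difference of 0.39 ± 0.098 (SE, limma adjusted p = 0.0712). The second (260350_at) had 0.14 ± 0.087 (SE) and also no overlap. The probe set titled eIF-5A 1 (262615_at) was dim, at 3.24 and 2.96.

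**Figure D3:**
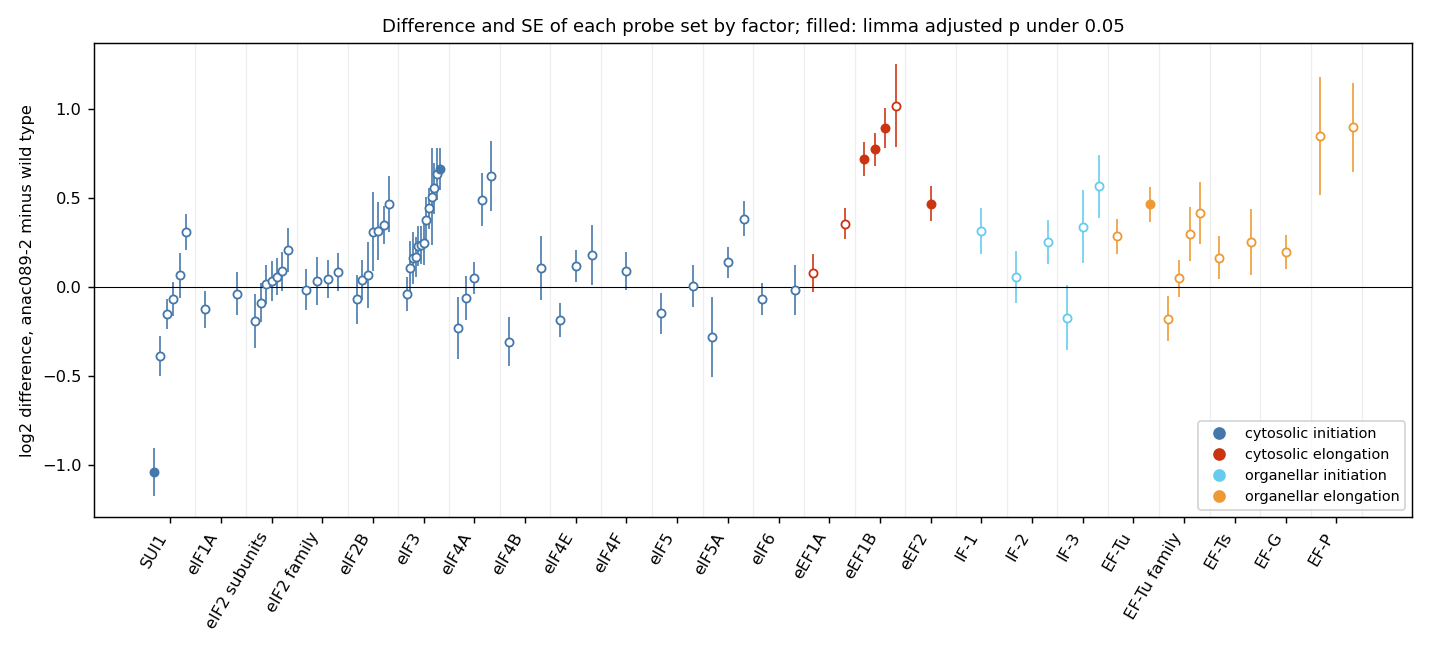
Log2 difference of anac089-2 minus wild type (vertical axis) with its SE for each translation factor probe set, grouped by the factor named in its title and coloured by class; filled points passed the limma test at an adjusted p under 0.05. The 4 eEF1B probe sets lie between 0.72 and 1.02, the 13 eIF3 probe sets spread from -0.04 to 0.66, and the SUI1 probe set AT5G54940 lies apart at -1.04.

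Placed by the wording of their titles, 69 probe sets were cytosolic, 17 organellar and 3 could not be placed. Of the cytosolic titles 6 rose and 1 fell, a share of 8.70% higher, with a median difference of 0.09. Of the organellar titles 1 rose and none fell, a share of 5.88%, with a median difference of 0.29. Over all probe sets 2.94% were higher, with 5.27% at mean levels from 6 to 8 and 7.71% at levels from 8 to 10. The cytosolic titles had a median level of 8.26 and the organellar titles 6.53, so both shares were near those of the array at like levels. The cytosolic median difference thus stood 0.20 below the organellar one. Both cyclic loess and quantile scaling brought this gap nearer to 0, at -0.08 and -0.11. A different measure is the median level of cytosolic titles minus that of organellar titles on each array. It was 1.66, 1.72 and 2.05 in wild type and 1.51, 1.75 and 1.58 in anac089-2, with an SD of 0.172 between arrays of a group. The cytosolic titles are mostly initiation factors (62 of 69) and the organellar titles mostly elongation factors (11 of 17), so placement and step of translation are mixed in this comparison.

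Within elongation, the 7 cytosolic probe sets had a median of 0.72 and the 11 organellar ones 0.29. Within initiation, the 62 cytosolic probe sets had a median of 0.06 and the 6 organellar ones 0.29. Without wild-type replicate 3 these were 0.02 and 0.15, and under cyclic loess the organellar one was 0.13. The order of the compartments was therefore opposite at the 2 steps, as a description with no test.

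EF-Tu is the bacterial-type counterpart of eEF1A. AT4G02930 read 8.69, 8.69 and 8.61 in wild type and 9.17, 9.01 and 9.21 in anac089-2, a rise of 0.47 ± 0.099 (SE, 1.38-fold, limma adjusted p = 0.0434). The groups were apart, and this was the one organellar title past the threshold, where median centring ended the call. TUFA, the nuclear gene of plastid EF-Tu, read 10.11, 9.93 and 10.05 in wild type and 10.23, 10.34 and 10.38 in the mutant, with 0.29 ± 0.0995 (SE, limma adjusted p = 0.168).

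EF-P promotes peptide bond formation in bacteria and is related to eIF5A. AT3G08740 read 6.80, 6.71 and 5.88 in wild type and 7.60, 7.24 and 7.25 in the mutant, a difference of 0.90 ± 0.250 (SE, limma adjusted p = 0.0946). AT4G26310 read 6.14, 5.98 and 4.81 in wild type and 6.66, 6.35 and 6.47 in the mutant, with 0.85 ± 0.330 (SE, limma adjusted p = 0.215). In both, wild-type replicate 3 was far below the other wild-type arrays. Without it the differences were smaller, 0.61 and 0.43, and that of AT3G08740 passed (limma adjusted p = 0.0427) while that of AT4G26310 did not (limma adjusted p = 0.0832). The fit without that array called 4.0% of all probe sets higher.

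The organellar exchange factor EF-Ts had 0.17 (253758_at) and 0.26 (AT4G11120). The probe set titled mitochondrial elongation factor (266127_s_at) had 0.20 ± 0.096 (SE). Of 4 probe sets titled as EF-Tu family, the brightest (260786_s_at) had 0.05, negative under cyclic loess and median centring, and AT3G22980 -0.18. Their titles name a protein family, not an organelle. Leaving them unplaced kept the cytosolic median 0.20 below the organellar one. Of the 3 titles that could not be placed, an elongation factor family protein (266471_at) read 7.94, 8.00 and 7.77 in wild type and 8.28, 8.25 and 8.24 in the mutant, apart but not past the threshold (0.35 ± 0.0998 SE, limma adjusted p = 0.0997).

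Of the 6 organellar initiation probe sets none passed. FUG1, the chloroplast IF-2, read 6.73, 6.74 and 6.58 in wild type and 7.16, 6.85 and 6.81 in anac089-2, with 0.26 ± 0.124 (SE). The chloroplast IF-1 gene AT4G11175 had 0.32 ± 0.130 (SE). The mitochondrial IF-2 gene AT4G11160 had 0.06 ± 0.147 (SE), a value whose sign turned under several scalings. The IF-3 family genes had 0.57 (AT4G30690), 0.34 (AT2G24060) and -0.17 (AT1G34360).

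None of the titles outside translation passed the test as reported, though a pair of them did under other settings. The 7 transcription elongation titles, which belong to proteins acting with RNA polymerase, had a median of -0.08. AT5G25520 read 7.00, 7.57 and 6.98 in wild type and 6.21, 6.69 and 6.08 in the mutant, with -0.86 ± 0.216 (SE, limma adjusted p = 0.0716). AT5G05140 had -0.39 ± 0.098 (SE, limma adjusted p = 0.0712) and AT5G09850 0.39 ± 0.111 (SE, limma adjusted p = 0.106). AT5G25520 and AT5G05140 were both called lower under median centring, quantile normalization, cyclic loess and array weights, and AT5G05140 also without wild-type replicate 3 (limma adjusted p = 0.0349). That last fit called 3.33% of all probe sets lower. For the first 2 the mutant arrays lay below all wild-type arrays, and for AT5G09850 above them.

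Rubber elongation factor titles are named after a rubber particle protein of the rubber tree, and relatives in Arabidopsis are known on lipid droplets. AT3G05500 was, after the eEF1A probe set, the brightest of all 99. It read 13.28, 12.94 and 13.21 in wild type and 12.72, 12.92 and 12.82 in anac089-2, with -0.32 ± 0.123 (SE, limma adjusted p = 0.205). AT1G67360 had 0.43 ± 0.140 (SE) and AT2G47780 0.47 ± 0.317 (SE), neither past the threshold.

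**Figure D4:**
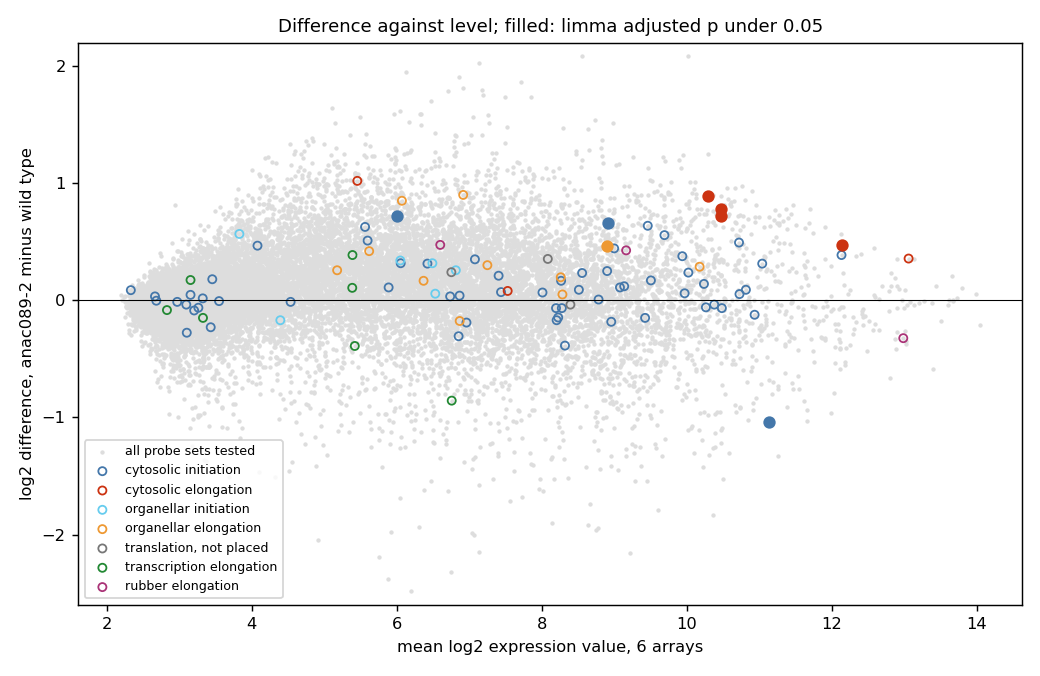
Log2 difference of anac089-2 minus wild type (vertical axis) against the mean log2 expression value over 6 arrays (horizontal axis), with all probe sets in grey and the 99 factor probe sets coloured by class; filled points passed the limma test at an adjusted p under 0.05, and 5 grey probe sets lie outside the plotted range. Of the 8 filled points, 5 lie above level 10, and open circles at the left are factors with a mean level under 4.

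Calls were more frequent at higher levels. Of the 89 translation factor probe sets, 14 had a mean level under 4, all of them with initiation titles, and none of these passed. Over the whole array 0.208% of the 11523 probe sets at such levels rose and 0.0521% fell. Of 18 translation factor probe sets at level 10 or above, 4 rose and 1 fell, beside the 15.0% and 10.9% of all probe sets at that level. The SE of the difference had a median of 0.12 over the translation factors, and the smallest difference called was 0.47. No factor with a smaller difference passed the adjustment over all probe sets, so smaller shifts could be missed. For some of them, such as the eEF1A probe set (0.36), the groups did not overlap. At an unadjusted p under 0.05, 28 of the 99 were higher and 5 lower. The share of all probe sets at that cut-off was not counted, so these counts have no background to be read against.

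Other genes of the translation pathway were taken from a list of release factors, poly(A)-binding proteins, ribosome recycling factors and regulators such as TOR, which had 29 probe sets. Of these 2 rose, 1 fell and 26 did not pass, with a median of 0.09, beside 2.94% higher and 1.98% lower over all probe sets. All 3 calls had a mean level above 6, where the array's shares were 6.9% and 5.7%. The eukaryotic release factor 1-1 (ERF1-1, 248749_at), which ends translation at stop codons, read 8.15, 8.00 and 8.06 in wild type and 7.27, 7.37 and 7.57 in anac089-2. It fell by 0.67 (SE 0.112, limma adjusted p = 0.0229), with no overlap. The eRF1 family probe set 261204_s_at read 9.34, 9.32 and 9.13 in wild type and 9.81, 9.58 and 9.95 in the mutant, with 0.52 ± 0.127 (SE, limma adjusted p = 0.0666).

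Poly(A)-binding proteins hold the tail of the message near its cap. Of 14 such probe sets 2 rose, by 0.68 ± 0.127 (SE, limma adjusted p = 0.0303) and 0.67 ± 0.138 (SE, limma adjusted p = 0.0402). PABP2, the brightest, had 0.21 ± 0.110 (SE). TOR, the kinase that couples nutrient state to translation, had -0.01 ± 0.166 (SE), and RAPTOR1, its partner, -0.23 ± 0.175 (SE).

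Beside these, the structural proteins of the cytosolic ribosome gave a different count on the same arrays. Of 115 probe sets titled 60S ribosomal 65.2% were higher, and of 85 titled 40S ribosomal 61.2%, with medians of 0.72 and 0.71. Of 52 titled as tRNA synthetases or ligases 7.69% were higher, with a median of 0.14. The translation factors, at 7.87% higher and a median of 0.12, had values near those of the synthetases, and the cytosolic elongation factors had a median like that of the ribosomal proteins. No test compared these groups.

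Of the 8 called probe sets none passed in every fit that left out 1 array. The eEF1B probe sets that passed did so without any 1 of the wild-type arrays or without anac089-2 replicate 2. Their limma adjusted p-values were between 0.0735 and 0.0848 without anac089-2 replicate 1 or 3, where their differences stayed between 0.69 and 0.89. TIF3F1, AT1G73180, EF-2 and AT4G02930 passed only in the fit without wild-type replicate 3, and AT5G54940 in those without wild-type replicate 1 or 3 or anac089-2 replicate 2. No factor was called without anac089-2 replicate 1 or without replicate 3, when 0.0044% of all probe sets were higher in either fit, and 0.022% and 0.0132% lower.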

How the data were processed

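RNA of imbibed seeds was hybridised to 6 ATH1 arrays, 3 per genotype. The authors deposited log2 expression values made with RMA and a limma comparison, per the submitters' processing notes. The authors' deposited table gave the titles and log2 ratios, p-values and FDR. Fold changes stand there as a signed linear score, made by the authors with limma. No log2 ratio in it was more than 0.0133 away from the fit below, and it had the same 8 factors past 0.05. FDR cells that had lost the decimal point were read as 1. Its 6 per-array columns were not used.

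The 64 control probe sets were left out. limma 3.58.1 in R 4.3.3 was fitted to the other 22746 (lmFit, eBayes, genotype only), with Benjamini-Hochberg adjustment over all and calls at an adjusted p under 0.05. A positive difference means a higher value in the mutant, on the log2 scale, and the number of arrays limits precision. The fit was tested on simulated data. The members and lists were chosen with earlier results of these data known. Named were the called factors, the brightest 3 of each class, members of the main factor families and called partners; further probe sets (SUI1, eIF1A, eIF5, EF-P and others) were named after their values were seen. Gene symbols came from the platform annotation, which listed 1 symbol for 55 factors, several for 6 and did not list 38; other names come from titles. Alternatives were other scalings, spread estimates, filters, a replicate block and leaving out each array.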

Additional observations from a re-analysis of the deposited data

How the results depend on the processing

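With 3 arrays a group, counts of calls moved with the fit more than the differences did, and the cause was not tested. For all probe sets (669 higher, 451 lower), array weights gave 1217 and 853, a replicate block 285 and 209, an adjusted p under 0.01 gave 18 and 27, and leaving out 1 array gave 1 to 910 and 3 to 757. Scaling also moved that split, to 902 and 882 by cyclic loess, 757 and 722 by median centring and 892 and 809 by a second quantile normalization. For the factors (7 higher, 1 lower), array weights gave 14 and 3, cyclic loess and quantile normalization 12 and 3 each, an intensity trend 12 higher, the replicate block 2 and 2, median centring 3 lower, leaving out the dimmest 40% 2 lower, an adjusted p under 0.01 gave 0 and 0, and leaving out 1 array 0 to 10 and 0 to 2. In the limma fit as reported, 28 factors were higher and 5 lower at an unadjusted p under 0.05, with no count over all probe sets beside them. For the partners (2 higher, 1 lower), the replicate block and an adjusted p under 0.01 gave 0 and 0, and leaving out 1 array 0 to 2 and 0 to 1.

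Same-numbered arrays did not deviate together (residual correlations of -0.0895, -0.0626 and -0.135), and the fit as reported did not pair them. The labels do not say whether same-numbered samples were handled together, and so few values cannot exclude it. The class medians kept their order under every alternative run, from -0.14 to -0.29 for initiation minus elongation and from -0.08 to -0.24 for cytosolic minus organellar. The Tu family probe set 260786_s_at turned to -0.0305 under cyclic loess and -0.04 under median centring, and ranged from -0.0033 to 0.1267 when 1 array was left out. AT4G11160 turned to -0.0681 with array weights, -0.1099 under cyclic loess, -0.0333 under median centring and -0.0842 under quantile normalization, and ranged from -0.0983 to 0.1367 when 1 array was left out. Of the 99 factors, 17 had a mean level under 4, where few probe sets of the array were called.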
